A study of Mus musculus with 55 samples.

Results

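Chromatin remodellers are protein machines that use ATP to slide, evict or exchange nucleosomes. The BAF complex (the mammalian SWI/SNF complex) opens promoters and enhancers and is needed for ES cell self-renewal. CHD proteins work alone or in the NuRD deacetylase complex, and the INO80 complex moves nucleosomes at promoters and replication forks. The genes described here are 10 remodeller genes, taken by symbol from the pre-mRNA tables: the BAF genes Smarca4, Smarcc1, Smarcd1, Smarcb1, Smarce1, Arid1a and Actl6a, the CHD genes Chd1 and Chd4, and Ino80. All 10 were listed among the 9911 genes of the CCNA-GFP table and among the 10237 genes of the CTCF-AID table.

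Pre-mRNA was quantified in 55 libraries of mouse E14Tg2a ES cells, grown in serum and LIF, as the cells left mitosis. CCNA-GFP cells carry a cyclin A-GFP reporter of the cell cycle and gave 19 libraries. CTCF-AID cells, which are 1 clone in which CTCF, a DNA-binding protein that shapes chromatin loops, is fused to an auxin-inducible degron, gave 18 libraries without and 18 with the auxin IAA. All released cells of both lines had been held with the CDK1 inhibitor RO-3306 (10 µM, 4 h) and then with nocodazole (50 ng/ml, 4 h), shaken off as mitotic cells and washed free of drug. In the +IAA arm, 0.5 mM IAA was added for the last 2 h of nocodazole and stayed on after release. Asynchronous +IAA cells were treated with IAA in parallel for 4 h, so the length of treatment differs between stages. Asynchronous cells were never arrested. Asynchronous and mitotic cells have 3 libraries each in every arm. The time points of 20, 40, 60, 90 and 120 min have 2 each in every arm, 30 min has 2 in CCNA-GFP alone, and 50 min has 2 in each CTCF-AID arm and 1 in CCNA-GFP. The study's methods call the replicates independent, and not every replicate was sequenced at every time, so the libraries of 60 min are replicates 1 and 2 and those of 90 min replicates 1 and 3.

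Values are TPM, a transcript abundance corrected for length and library size, of an unspliced isoform that the authors added for each gene. Introns are removed soon after they are copied, so this level is used as a measure of ongoing transcription. Transcription falls strongly in mitosis, and whether the level in mitotic cells follows it was not tested. TPM are per length, so levels can be compared between genes. Of 10 fixed markers of ES cells, 9 were listed in each table (Sox2 was not), and 0 of 7 primitive endoderm markers were. Of other lists, 3 of 6 trophoblast markers were listed in the CCNA-GFP table (0.139–5.37 TPM summed per library) and 4 of 6 in the CTCF-AID table (0.354–9.20 TPM), 3 of 6 and 4 of 6 markers of primed or early differentiated cells (2.82–8.84 and 3.08–12.8 TPM), and 1 of 8 and 3 of 8 of fibroblasts or feeder cells (2.03–11.5 and 3.73–12.95 TPM), while the ES cell markers summed to 37.4–152.2 and 47.5–163.5 TPM. The 3 other lists also summed to more at 60 min than in mitosis in every arm, and their part in the results was not tested. The listed genes summed to 13746.9–42575.8 TPM per library in CCNA-GFP and 17701.5–43370.2 TPM in CTCF-AID, and from 40 min after release on every library summed to more than any mitotic library of its arm. The 10 remodeller genes together made up 0.135–0.215% and 0.128–0.228% of these sums. Changes are therefore given both as measured and against the median change of all genes of the same table, and main directions that turn when every library is scaled to the same sum are named. Shares of all genes called higher or lower are those of the deposited scale with all libraries. Counts under other scalings, other settings or without a replicate stand without such a share. In each library the low values are whole multiples of 1 step (within 0.02 of a step), which was taken as 0.01 TPM times a factor of that library. Libraries were also divided by this scaling factor (2.17–3.81 in CCNA-GFP, 1.84–2.80 in CTCF-AID), which is inferred from the values and not described in the sources used here. Fewer transcribing cells and less pre-mRNA per cell cannot be told apart in bulk RNA.

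The 3 sequences below are the 250 bases before the RefSeq start (GRCm38.p6) of Actl6a, which on the deposited scale was called higher at 40 min in all 3 arms, of Smarcd1, called there in CCNA-GFP and without IAA, and of Ino80, called higher there in none. Actl6a lies on the plus strand (chr3:32708296-32708545), Smarcd1 on the plus strand (chr15:99702037-99702286) and Ino80 on the minus strand (chr2:119477688-119477937). Capitals mark matches, on either strand, to the GC box GGGCGG, to CCAAT or to AGGNGGC, a part of the motif that CTCF binds, and matches to the first and the last can overlap.
Actl6a: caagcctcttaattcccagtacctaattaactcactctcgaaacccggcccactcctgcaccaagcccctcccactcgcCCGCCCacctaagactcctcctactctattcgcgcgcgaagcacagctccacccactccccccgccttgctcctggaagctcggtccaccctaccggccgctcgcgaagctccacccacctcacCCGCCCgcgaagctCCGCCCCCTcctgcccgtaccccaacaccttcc
Smarcd1: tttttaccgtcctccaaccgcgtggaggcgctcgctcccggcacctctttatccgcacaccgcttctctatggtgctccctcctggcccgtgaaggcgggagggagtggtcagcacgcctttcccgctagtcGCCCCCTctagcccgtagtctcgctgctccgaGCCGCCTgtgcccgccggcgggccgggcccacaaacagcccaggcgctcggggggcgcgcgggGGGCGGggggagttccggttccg
Ino80: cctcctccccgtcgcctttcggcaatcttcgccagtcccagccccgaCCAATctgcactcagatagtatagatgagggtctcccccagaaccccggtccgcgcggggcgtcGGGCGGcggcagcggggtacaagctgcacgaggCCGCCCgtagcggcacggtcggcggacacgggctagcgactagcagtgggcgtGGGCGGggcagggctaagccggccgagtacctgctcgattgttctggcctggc
RefSeq promoters (250 bases before to 50 after the start) were matched for 8 of the 10 genes. A GC box was found in 8 of 8, against 64.5% of the 10763 promoters of listed genes. The CTCF part was found in 5 of 8 (Actl6a, Arid1a, Chd4, Smarcc1 and Smarcd1; 40.9% of listed promoters) and CCAAT in 2 of 8 (Chd4 and Ino80; 38.4%). The ETS motif CCGGAAG was found in Smarcc1 alone (18.5% of listed promoters), and the E-box CACGTG and the TATA box TATAAA in none (10.7% and 6.57%). These matches describe letters in a window and are not binding sites.

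In asynchronous cells the highest pre-mRNA levels among the 10 genes were those of Chd4 and Arid1a. Chd4, the ATPase of NuRD, was at 7.38 ± 2.57 TPM (SD, n = 3) in CCNA-GFP, and Arid1a, the large DNA-binding subunit of canonical BAF, at 6.95 ± 2.23 TPM. Actl6a followed at 4.39 ± 0.835 TPM and Smarcc1 at 3.91 ± 0.925 TPM. Smarca4 (3.41 ± 1.05), Ino80 (3.25 ± 1.15), Smarcb1 (3.12 ± 0.781), Chd1 (2.77 ± 0.555), Smarce1 (2.38 ± 0.439) and Smarcd1 (2.23 ± 0.695 TPM) differed from their neighbours in this order by less than these spreads. The third asynchronous library was the highest of its 3 for all 10 genes in CCNA-GFP, and its listed genes also summed to the most, 28933.9 TPM against 20501.4 and 20540.9 TPM.

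**Figure D1:**
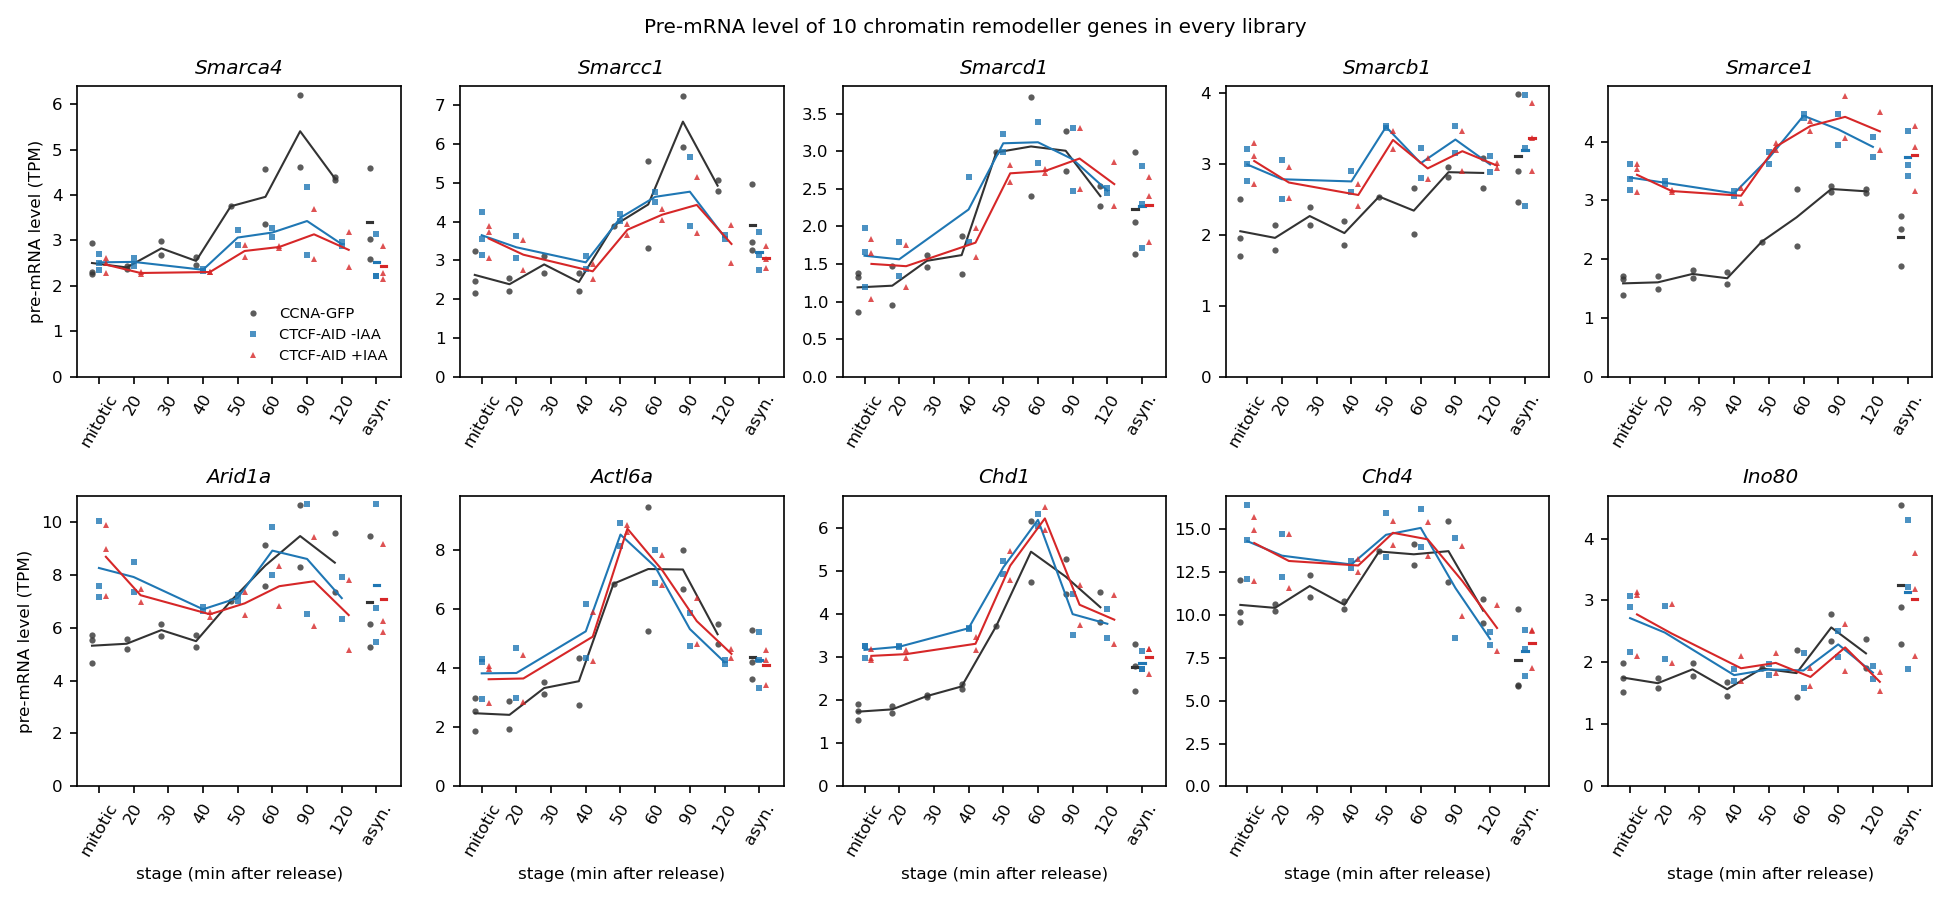
Pre-mRNA level (TPM, linear axis from 0) of each of the 10 genes by stage, where a point is 1 library, lines join the means of successive stages and bars mark the asynchronous means. Actl6a and Chd1 peak at 50–60 min in the CTCF-AID arms, Chd4 is lower in asynchronous than in mitotic cells on average in all 3 arms, and Ino80 is lower on average at every time after release than in mitosis in both CTCF-AID arms.

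The first question was when each gene comes back after mitosis. Within 20 min no gene of the table passed the test against mitosis in any arm (limma, adjusted p under 0.05), and 0 of the 10 remodeller genes did, with 0 at an unadjusted p under 0.05. At 30 min, measured in CCNA-GFP, 0 of 10 passed and 0 had an unadjusted p under 0.05, against 0.303% of all genes that were higher. At 40 min 3 of 10 were higher in CCNA-GFP (49.3% of all genes), namely Actl6a, Chd1 and Smarcd1, 2 of 10 in CTCF-AID without IAA (Actl6a and Smarcd1; 63.3% of all genes), and 1 of 10, Actl6a, with IAA (58.7%). Ino80 was lower at 40 min in CTCF-AID without IAA (3.21% of all genes were lower), and 0 of 10 were lower with IAA (3.87%). The median difference of the 10 genes at 40 min was 0.14 on the log2 scale in CCNA-GFP, -0.02 without IAA and -0.05 with IAA, below the medians of all genes, 0.26, 0.34 and 0.30. With libraries of the same sum no gene of the 10 was called higher at 40 min in any arm, and Actl6a was at 0.02 in CCNA-GFP, -0.06 without IAA and -0.0067 with IAA. Where a replicate is left out, a time point that holds it keeps 1 library, which is assumed to vary like the other groups. In CCNA-GFP the calls of Chd1 and Smarcd1 were each lost without any 1 replicate (0.32–0.37 and 0.32–0.41), that of Actl6a without replicate 1 (0.38), and without IAA that of Ino80 was lost without replicate 1 (-0.13) or divided by the scaling factors (-0.18). All these comparisons share the mitotic libraries of their arm.

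At 60 min after release 9 of 10 genes were higher than in mitosis in CCNA-GFP, where 88.3% of all genes were. Ino80 was the exception, and none was lower (0.515% of all genes). In CTCF-AID 6 of 10 were higher both without IAA (84.8% of all genes) and with IAA (82.2%), in both arms Actl6a, Chd1, Smarca4, Smarcc1, Smarcd1 and Smarce1, and 1 of 10, Ino80, was lower (2.7% and 4.04% of all genes). The median log2 difference of the 10 genes was 0.64 in CCNA-GFP, 0.34 without IAA and 0.25 with IAA, and that of all genes 0.79, 0.63 and 0.63. In each arm 3 of the 10 genes, Actl6a, Chd1 and Smarcd1, lay above the median of all genes. Under the same-sum scaling Chd1 fell below that median in CTCF-AID (by 0.06 without and 0.01 with IAA) and Smarcd1 with IAA (by 0.06), while Actl6a stayed above it in every arm. Over all settings the lowest value of Smarcd1 against that median was -0.0001 in CCNA-GFP, -0.0014 without IAA and -0.10 with IAA. With every library scaled to the same sum the median of all genes at 60 min fell to 0.02 in CCNA-GFP, 0.06 without IAA and 0.06 with IAA, and the differences of the other 7 genes turned negative or stayed so in all 3 arms. At 50 min 3 of 10 genes were higher in CTCF-AID without IAA and 3 of 10 with IAA (79.1% and 78.2% of all genes), and 1 and 2 were lower (4.56% and 5.37%). At 90 min the counts of higher genes were 9 of 10 in CCNA-GFP (89.1%), 6 of 10 without IAA (74.8%) and 5 of 10 with IAA (73.8%), and those of lower genes 0, 2 and 1 (0.948%, 3.37% and 4.41%). With every library of the same sum the 90-min counts were 1, 0 and 0 higher and 5, 9 and 8 lower, with no share of all genes given for that scaling. Among called genes Smarca4 and Smarce1 turned in all 3 arms, Smarcc1 in CCNA-GFP and without IAA, Actl6a and Chd1 in both CTCF-AID arms, and Smarcd1, Smarcb1, Arid1a and Ino80 in CCNA-GFP. Without replicate 3, which leaves 1 library at 90 min, the count without IAA was 1 of 10 in place of 6. At 50 min Smarcd1 and Chd1 turned in both arms (-0.17 to -0.06 without and -0.15 with IAA).

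Actl6a encodes BAF53a, an actin-related subunit shared by BAF, INO80 and TIP60 complexes, and it had the largest difference of the 10 genes at 60 min on the log2(TPM + 1) scale in all 3 arms, whereas the ratio of mean TPM was higher for Chd1 (3.14 against 2.97 in CCNA-GFP, and 1.95 against 1.94 and 2.05 against 2.02 without and with IAA). Its level in mitosis was 2.54, 1.89 and 3.01 TPM in CCNA-GFP, then 4.36 and 2.78 TPM at 40 min, 6.87 TPM in the single library at 50 min, 9.47 and 5.27 TPM at 60 min, 6.71 and 8.01 TPM at 90 min and 5.50 and 4.82 TPM at 120 min. Both 60-min libraries lay above all 3 mitotic ones, and the lower of them overlapped the asynchronous libraries (4.23, 3.64 and 5.29 TPM). The difference from mitosis was 0.48 ± 0.14 (log2, SE) at 40 min and 1.33 ± 0.14 at 60 min (limma, adjusted p = 0.00597 and 1.5e-08), the latter 0.54 above the median of all genes and higher than 83.8% of them. Without replicate 1 the 40-min difference was 0.38 with an adjusted p of 0.113. In CTCF-AID without IAA Actl6a was highest at 50 min, at 8.16 and 8.92 TPM, against 4.33, 2.95 and 4.22 TPM in mitosis. Its 60-min difference was 0.91 ± 0.11 without IAA (adjusted p = 5.1e-08) and 0.95 ± 0.11 with IAA (adjusted p = 2.4e-08), and with libraries of the same sum these became 0.08 and 0.12, against 0.23 in CCNA-GFP. Under that scaling the call without IAA was lost.

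Chd1, a remodeller that travels with elongating RNA polymerase II and keeps ES cell chromatin open, rose nearly as much. In CCNA-GFP it was at 1.53, 1.76 and 1.91 TPM in mitosis, 2.26 and 2.38 TPM at 40 min, 6.16 and 4.74 TPM at 60 min and 3.82 and 4.50 TPM at 120 min. Both 60-min libraries were above all mitotic and all asynchronous libraries (2.20, 2.79 and 3.31 TPM), and the difference from mitosis was 1.29 ± 0.12 (adjusted p = 8.0e-09). In CTCF-AID without IAA the 60-min libraries, at 6.05 and 6.33 TPM, again lay above the mitotic (2.98, 3.27 and 3.26 TPM) and the asynchronous ones (2.73, 2.74 and 3.15 TPM), with a difference of 0.80 ± 0.09 from mitosis (adjusted p = 1.6e-08). With IAA they were 5.95 and 6.50 TPM and the difference was 0.86 ± 0.09 (adjusted p = 5.3e-09). Chd1 stayed higher with libraries of the same sum in CCNA-GFP (0.26), while in CTCF-AID that scaling left -0.002 without and 0.05 with IAA, neither past the threshold.

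Smarcd1, a small accessory subunit that links BAF to transcription factors, was the third gene above the median on the deposited scale with all libraries. It was at 1.32, 0.864 and 1.38 TPM in mitotic CCNA-GFP cells and at 3.73 and 2.40 TPM at 60 min, a difference of 0.97 ± 0.12 (adjusted p = 3.2e-07). In CTCF-AID it went from 1.98, 1.20 and 1.66 TPM to 3.40 and 2.85 TPM without IAA (0.74 ± 0.12, adjusted p = 5.6e-06) and from 1.83, 1.03 and 1.64 TPM to 2.77 and 2.71 TPM with IAA (0.66 ± 0.12, adjusted p = 2.3e-05). The mitotic and 60-min libraries did not overlap in any arm. Scaled to the same sum, these differences were 0.08, 0.06 and 0.0069, none past the threshold. It is the shortest of the 10 genes, 11.9 kb on chromosome 15 (99702129–99713991, plus strand; Gencode vM21), while Chd1 spans 67.6 kb on chromosome 17 (15704967–15772610, plus strand) and Actl6a 20.7 kb on chromosome 3 (32706298–32726973, plus strand), against a median of 22.6 kb over the genes of the CCNA-GFP table. Mrpl47, which is also listed, overlaps Actl6a on the opposite strand, and the libraries keep strand.

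Smarca4 (BRG1, the ATPase of BAF in ES cells), Smarcc1 (BAF155, a core scaffold) and Smarce1 (BAF57) rose less in CCNA-GFP. Smarca4 was at 2.30, 2.26 and 2.95 TPM in mitosis, 4.57 and 3.36 TPM at 60 min and 4.61 and 6.20 TPM at 90 min, and its 60-min difference was 0.61 ± 0.13 (adjusted p = 1.3e-04). Smarcc1 went from 2.47, 2.16 and 3.23 TPM to 5.56 and 3.32 TPM at 60 min (0.69 ± 0.13, adjusted p = 4.9e-05) and 5.91 and 7.24 TPM at 90 min. Smarce1 went from 1.71, 1.40 and 1.66 TPM to 3.20 and 2.23 TPM at 60 min (0.55 ± 0.12, adjusted p = 2.5e-04) and 3.14 and 3.25 TPM at 90 min. The 90-min libraries of all 3 genes lay above every mitotic one. In replicate 1, which has both times, the levels at 60 and 90 min were close, at 4.57 and 4.61 TPM for Smarca4, 5.56 and 5.91 TPM for Smarcc1 and 3.20 and 3.14 TPM for Smarce1. In CTCF-AID without IAA their 60-min differences were 0.33 ± 0.09, 0.37 ± 0.10 and 0.35 ± 0.07 (adjusted p = 0.00169, 0.00152 and 1.1e-04), and with IAA 0.23 ± 0.09, 0.27 ± 0.10 and 0.29 ± 0.07 (adjusted p = 0.0191, 0.0155 and 8.9e-04). With IAA the call for Smarca4 was lost without any 1 of the replicates (0.18–0.26) and that for Smarcc1 without replicate 2 or 3 (0.24 in both). With libraries of the same sum all 3 genes were lower at 60 min than in mitosis in every arm, with differences of -0.41, -0.35 and -0.35 in CCNA-GFP. Smarca4 spans 88.1 kb and Smarcc1 122.5 kb on chromosome 9, and Smarce1 22.0 kb on chromosome 11, and Dhx30, which is also listed, overlaps Smarcc1 on the opposite strand.

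Arid1a was higher at 60 min in CCNA-GFP, at 9.13 and 7.57 TPM against 4.67, 5.55 and 5.74 TPM in mitosis (0.66 ± 0.15, adjusted p = 3.5e-04; -0.51 with libraries of the same sum). In CTCF-AID its mitotic libraries were already at 7.16, 7.59 and 10.0 TPM without IAA and 8.98, 7.18 and 9.86 TPM with IAA, and those at 60 min, at 8.01 and 9.81 and at 6.81 and 8.32 TPM, lay within or close to that range. The 60-min differences there, 0.25 ± 0.15 and -0.03 ± 0.15, did not pass the test (adjusted p = 0.138 and 0.85).

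Smarcb1 (BAF47), a core subunit known as a tumour suppressor, had the smallest 60-min difference of the BAF genes in CCNA-GFP and without IAA. In CCNA-GFP it was at 1.95, 1.69 and 2.50 TPM in mitosis and 2.66 and 2.02 TPM at 60 min, overlapping groups with a difference of 0.23 ± 0.10 within replicates (adjusted p = 0.0422; -0.67 with libraries of the same sum). That call was lost without any 1 of the replicates (0.20–0.28, adjusted p = 0.0733–0.274). At 120 min the difference was 0.45 ± 0.10 (adjusted p = 4.3e-04). In CTCF-AID the 60-min differences were 0.07 ± 0.07 and 0.03 ± 0.07 without and with IAA, and neither passed the test. On the scale of all genes Smarcb1 was above 12.7%, 9.46% and 10.3% of them at 60 min in the 3 arms.

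**Figure D2:**
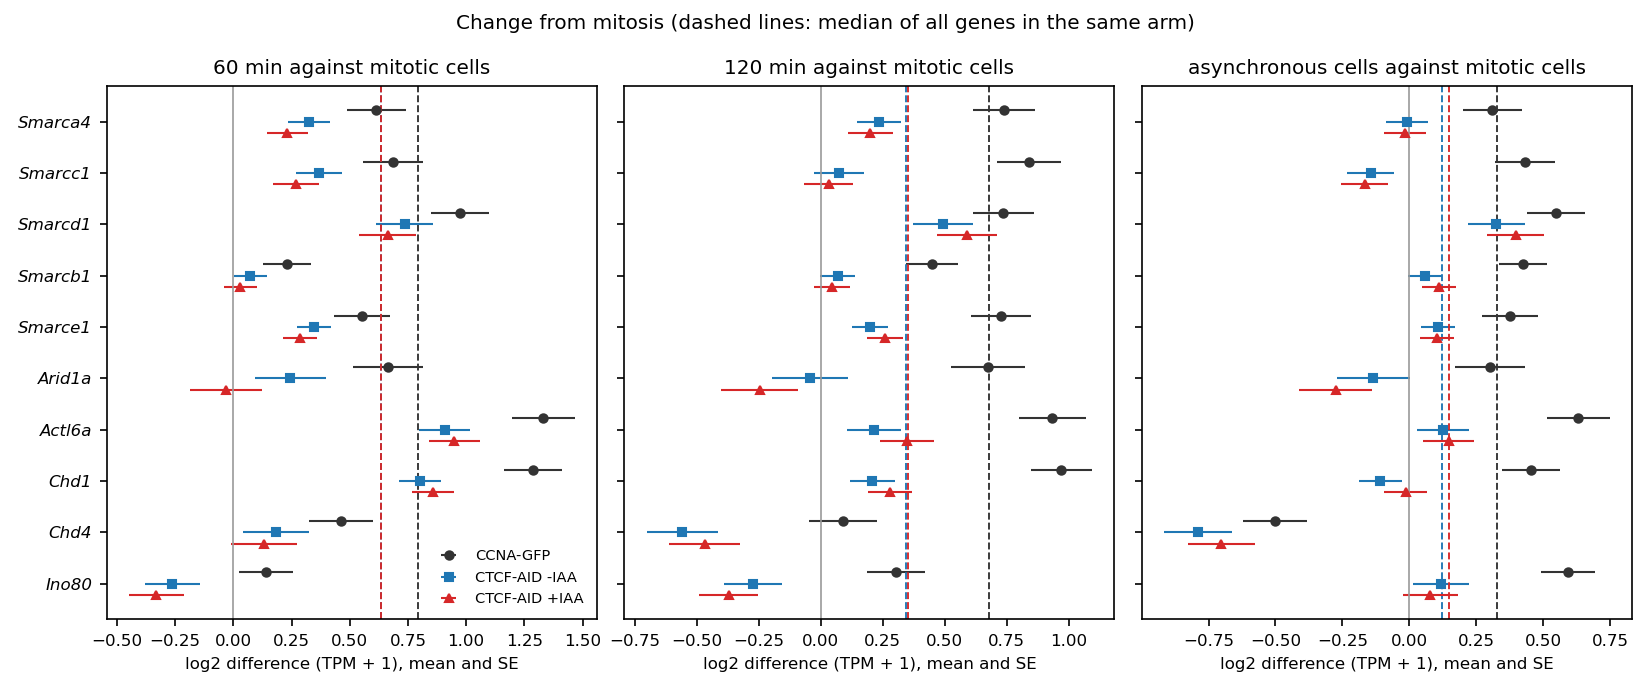
Log2 difference (TPM + 1) from mitotic cells at 60 min, at 120 min and in asynchronous cells for each gene and arm, as the limma estimate with its SE, and dashed lines give the median of all genes in the arm. At 60 min Actl6a, Chd1 and Smarcd1 lie right of the median in every arm (under the same-sum scaling Chd1 lies left of it in both CTCF-AID arms and Smarcd1 with IAA), and Chd4 in asynchronous cells and Ino80 in CTCF-AID at 60 min lie left of 0.

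Chd4 followed another course, since its pre-mRNA was higher in mitotic than in asynchronous cells. In CTCF-AID without IAA mitotic libraries were at 14.4, 12.1 and 16.4 TPM and asynchronous ones at 8.03, 6.43 and 9.13 TPM, and with IAA at 14.9, 12.0 and 15.7 TPM and at 9.03, 6.88 and 9.11 TPM, with no overlap in either arm. In CCNA-GFP the mitotic libraries were at 10.1, 9.57 and 12.0 TPM and the asynchronous ones at 5.92, 5.87 and 10.3 TPM, and these groups overlapped through the third asynchronous library. The difference of asynchronous from mitotic cells was -0.79 ± 0.13 without IAA (adjusted p = 4.6e-05), -0.70 ± 0.13 with IAA (adjusted p = 1.1e-04) and -0.50 ± 0.12 in CCNA-GFP (adjusted p = 0.00112), where 5.25%, 5.89% and 1.97% of all genes were lower. Of all genes 0.205%, 0.332% and 0.383% had a difference below that of Chd4. It was lower under all scalings, though in CCNA-GFP the call was lost when each library was divided by its scaling factor (-0.23, adjusted p = 0.117). After release without IAA all libraries from 20 to 60 min lay at 12.2–16.2 TPM, within the mitotic range, and those at 120 min at 8.21 and 8.97 TPM. In CCNA-GFP it was at 14.2 and 12.9 TPM at 60 min, 11.9 and 15.5 TPM at 90 min and 9.54 and 10.9 TPM at 120 min, the last 2 close to or within the mitotic range. Its 60-min difference from mitosis was 0.46 ± 0.14 in CCNA-GFP (adjusted p = 0.00373; -0.78 with libraries of the same sum), 0.18 ± 0.14 without IAA and 0.13 ± 0.14 with IAA (adjusted p = 0.23 and 0.39). Chd4 spans 34.6 kb on chromosome 6 (125095981–125130591, plus strand).

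Ino80, the ATPase of the INO80 complex, was the single gene of the 10 with no rise at 60 min in CCNA-GFP, at 2.21 and 1.45 TPM against 1.74, 1.53 and 2.00 TPM in mitosis (0.14 ± 0.12, adjusted p = 0.253). In CTCF-AID it fell, from 2.89, 2.17 and 3.08 TPM in mitosis to 1.90 and 1.69 TPM at 40 min, 1.98 and 1.79 TPM at 50 min and 2.16 and 1.58 TPM at 60 min without IAA. With IAA it went from 3.09, 2.11 and 3.13 TPM to 2.11 and 1.70, 1.84 and 2.15 and 1.91 and 1.62 TPM at the same times. Without IAA all libraries of these 3 times lay below all mitotic ones, and with IAA both 60-min libraries did. The 60-min difference was -0.26 ± 0.12 without IAA (adjusted p = 0.0406) and -0.33 ± 0.12 with IAA (adjusted p = 0.012), with 1.65% and 1.82% of all genes lower still, and under the same-sum scaling it was -0.94 and -1.01. Divided by the scaling factors it was -0.16 without IAA, no longer past the threshold (adjusted p = 0.137), and -0.26 with IAA (adjusted p = 0.0212). The call without IAA was lost without replicate 1 or 2 (-0.19 and -0.26) and the one with IAA without replicate 1 (-0.17). Asynchronous cells had the highest mean level in every arm, 3.25, 3.14 and 3.02 TPM, with a wide spread (2.90, 2.30 and 4.53 TPM in CCNA-GFP, 3.22, 1.89 and 4.30 TPM without IAA). In CCNA-GFP all 3 of them were above all mitotic libraries, a difference of 0.59 ± 0.10 (adjusted p = 6.3e-05), while in CTCF-AID the differences were 0.12 ± 0.10 and 0.08 ± 0.10 (adjusted p = 0.374 and 0.555). Ino80 spans 104.6 kb on chromosome 2 (119373042–119477687, minus strand).

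Ratios between genes of the same library do not depend on how that library was scaled, so the same courses were followed as ratios of TPM for 6 pairs chosen after their values were seen, of which 4 are given here with no test. Actl6a to Smarcb1 was 1.12–1.30 in mitotic CCNA-GFP cells, 3.56 and 2.61 at 60 min, 1.79 and 1.81 at 120 min and 1.33–1.48 in asynchronous cells. Without IAA it was 1.07–1.44 in mitosis and 2.46 and 2.49 at 60 min, with no overlap between these stages in either line. Chd4 to Chd1 was 5.43–6.61 in mitotic CCNA-GFP cells, 4.59 and 4.53 at 40 min and 2.30 and 2.72 at 60 min, and was then close to the asynchronous range of 2.11–3.12. In CTCF-AID without IAA it went from 3.70–5.03 in mitosis to 2.31 and 2.55 at 60 min. Ino80 to Smarca4 fell from 0.676–0.758 in mitosis to 0.483 and 0.432 at 60 min in CCNA-GFP and from 0.864–1.23 to 0.658 and 0.516 without IAA, and was 0.758–1.12 and 0.853–1.45 in asynchronous cells. By contrast, Smarce1 to Smarca4 was 0.562–0.742 in mitosis and 0.700 and 0.663 at 60 min in CCNA-GFP, and 1.34–1.35 and 1.36–1.44 without IAA.

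**Figure D3:**
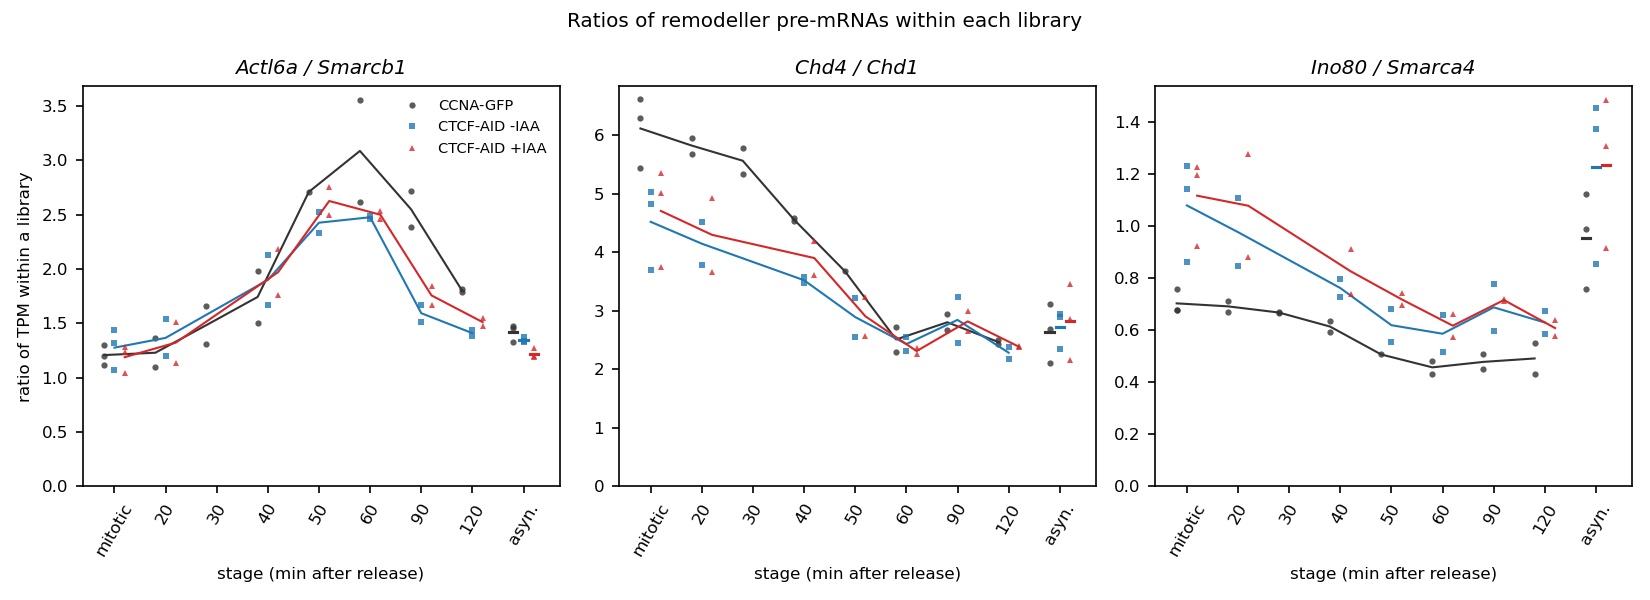
Ratio of the TPM of 2 genes within each library (linear axis from 0) by stage, where a point is 1 library, lines join the means and bars mark asynchronous cells. Actl6a to Smarcb1 reaches 3.56 and 2.61 at 60 min in CCNA-GFP, Chd4 to Chd1 falls to 2.30 and 2.72, and Ino80 to Smarca4 is lower at 60 min than in mitosis in all 3 arms, and no scaling of libraries changes these ratios.

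The next question was whether the level reached at 60 min was kept. At 120 min 9 of 10 genes were higher than in mitosis in CCNA-GFP (90.2% of all genes), 4 of 10 without IAA (69.6%) and 5 of 10 with IAA (68.2%). Chd4 and Ino80 were lower than in mitosis in both CTCF-AID arms, 2 of 10 where 3.15% and 4.42% of all genes were. Chd4 was at -0.56 ± 0.14 without IAA (adjusted p = 0.00139) and -0.47 ± 0.14 with IAA (adjusted p = 0.00559), the latter lost without replicate 1 (-0.15). Ino80 was at -0.27 ± 0.12 and -0.37 ± 0.12 (adjusted p = 0.0404 and 0.00706), both lost without replicate 1 (-0.11 and -0.05), and the former also when divided by the scaling factors (-0.22, adjusted p = 0.067). Scaled to the same sum, 0 of the 10 genes were called higher at 120 min than in mitosis in CCNA-GFP and without IAA, and 1 with IAA, with no share of all genes given for that scaling. The counts of 4 and 5 in CTCF-AID became 0 and 0 without replicate 2. Between 60 and 120 min Actl6a fell by 0.40 ± 0.14 on the log2 scale in CCNA-GFP (adjusted p = 0.0347), the 1 gene of the 10 called lower there (28.5% of all genes), and 0 were called higher (9.6%). That call was lost without replicate 1 (-0.11) or 3 (-0.40, adjusted p = 0.0551). Without IAA 4 of 10 were lower at 120 than at 60 min (53.1% of all genes), namely Actl6a (-0.69 ± 0.12, adjusted p = 3.4e-05), Chd1 (-0.59 ± 0.10, adjusted p = 2.2e-05), Chd4 (-0.74 ± 0.15, adjusted p = 2.9e-04) and Smarcc1 (-0.29 ± 0.11, adjusted p = 0.0217), the last of them lost without replicate 1 or 2 (-0.24 and -0.35). None was higher without IAA (7.31%) or with IAA (7.61%). Under the same-sum scaling, by contrast, 5 of 10 were called higher at 120 than at 60 min in CCNA-GFP, 3 without IAA and 4 with IAA. These shares of all genes are those of the deposited scale and not of the same-sum scaling. With IAA 3 of 10 were lower (50.8%), namely Actl6a (-0.60 ± 0.12), Chd1 (-0.58 ± 0.10) and Chd4 (-0.60 ± 0.15), with adjusted p = 1.6e-04, 2.8e-05 and 0.00203. These 3 genes kept their fall in CTCF-AID under both other scalings and without each replicate. In CCNA-GFP Chd1 and Chd4 had differences of -0.32 ± 0.13 and -0.37 ± 0.15 that missed the threshold (adjusted p = 0.065 and 0.0505).

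Asynchronous cells, which were never arrested, had higher levels than mitotic cells for 9 of 10 genes in CCNA-GFP (70.4% of all genes were higher), the exception being Chd4. Actl6a had the highest of these differences (0.63 ± 0.12, adjusted p = 1.4e-04), followed by Ino80 and Smarcd1 (0.55 ± 0.11, adjusted p = 2.3e-04), and these 3 stayed higher with libraries of the same sum, where Smarca4, Smarcc1, Smarcb1, Smarce1 and Arid1a turned negative (-0.22 to -0.0045). Without replicate 3 Smarca4 (0.21), Smarce1 (0.32) and Arid1a (0.13) no longer passed, and without replicate 2 Smarca4 (0.31) and Smarce1 (0.29) did not. In CTCF-AID Smarcd1 alone was higher in asynchronous than in mitotic cells, 1 of 10 in each arm (34.3% and 40.9% of all genes), by 0.33 ± 0.11 without IAA and 0.40 ± 0.11 with IAA (adjusted p = 0.0185 and 0.00428), and without replicate 3 these were 0.23 and 0.36 and no longer passed. Divided by the scaling factors 5 of 10 genes were higher in each arm, and with the same sum 5 of 10 were lower in each. The medians of all genes, without and with IAA, were 0.18 and 0.19 with the factors and 0.03 and 0.04 with the same sum. At 120 min 6 of 10 genes were above the asynchronous level in CCNA-GFP (63.4% of all genes), Chd4 by the most (0.59 ± 0.14, adjusted p = 9.4e-04; 0.43 and not past the threshold without replicate 2). That count was 2 of 10 without replicate 1, 1 of 10 without replicate 2, and 0 under both other scalings. In CTCF-AID 2 of 10, Chd1 and Smarca4, were above it without IAA (51% of all genes) and with IAA (47.2%). Chd1 was above it by 0.32 ± 0.09 and 0.29 ± 0.09 (adjusted p = 0.0046 and 0.00832) and Smarca4 by 0.24 ± 0.09 and 0.22 ± 0.09 (adjusted p = 0.0237 and 0.0422), and all these were lost without replicate 2 (Chd1 0.22 and 0.19, Smarca4 0.21 and 0.09). Smarca4 turned to -0.05 and -0.05 with libraries of the same sum and to -0.02 and -0.0058 when divided by the scaling factors, and the calls of Chd1 were lost under both (0.01 and 0.0040, and 0.02 and 0.04). Ino80 was the 1 gene below the asynchronous level at 120 min in every arm, with differences of -0.29 ± 0.12 in CCNA-GFP (adjusted p = 0.032), -0.39 ± 0.12 without IAA (adjusted p = 0.00668) and -0.45 ± 0.12 with IAA (adjusted p = 0.00251), where 5.86%, 7.25% and 8.43% of all genes were below. Each of these 3 calls was lost without replicate 1 (-0.31, -0.23 and -0.15), and the first also without replicate 2 (-0.34) or 3 (-0.19), the second also without replicate 3 (-0.30).

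The CTCF-AID arms ask whether remodeller genes need CTCF to come back. The degron removes the protein, so the pre-mRNA of Ctcf does not check the depletion, and its differences between +IAA and -IAA ran from -0.05 to 0.24 with none past the threshold. On the deposited scale Ctcf was lower with IAA in mitotic replicate 2 (6.10 against 6.15 TPM) and in replicate 1 at 20 min (5.98 against 6.61 TPM). In every other pair of libraries it was higher with IAA. None of the 10 remodeller genes passed the test between +IAA and -IAA at any of the 8 stages (limma, adjusted p under 0.1 and an absolute log2 difference above 0.2), where 0.313% of all genes were higher and 0.694% lower in asynchronous cells, 0.176% and 0.557% at 90 min, 0.127% and 0.459% at 120 min, 0.0879% and 0.195% at 50 min, 0.0586% and 0.166% at 60 min, and 0% at the other 3 stages. In the 80 values, differences ran from -0.21 to 0.08, 54 of them negative (the median of all genes, from -0.06 to 0.01, was negative at 6 of the 8 stages), with SE of 0.09–0.25, and 0 had an unadjusted p under 0.05. The count was also 0 under each of the alternative settings run. In mitosis and at 20 and 40 min the test called no gene of the table. The study, which used DESeq2 on counts at the same thresholds, did report genes that respond to CTCF loss early after mitosis. A count of 0 here therefore cannot show that a remodeller gene does without CTCF. The lowest were Arid1a at 60 min (-0.21 ± 0.25, with 6.81 and 8.32 TPM with IAA against 8.01 and 9.81 TPM without) and Smarcd1 at 40 min (-0.20 ± 0.19, with 1.98 and 1.59 TPM against 2.66 and 1.79 TPM). In these pairs the +IAA library of a replicate was the lower one each time, while the groups overlapped. Smarca4, Smarcc1 and Arid1a were lower with IAA in 15 of 18 pairs of libraries each and their mean differences over the 8 stages were -0.07, -0.07 and -0.08, and Smarcd1 was lower in 13 of 18 (mean -0.07). Of all genes 8.84% were lower in 15 or more pairs and 24.9% in 13 or more, with a median of 10 of 18. Under the same-sum scaling Smarca4, Smarcc1 and Arid1a were lower in 13 pairs each and Smarcd1 in 12, and divided by the scaling factors in 12, 11, 11 and 14 (both counts were added after seeing the data). Of all genes 15.2% were lower in 13 or more pairs under the same-sum scaling, with a median of 9. Divided by the scaling factors 4.9% were, with a median of 8. Chd4 and Smarce1, at means of 0.02 and 0.01, were lower in 10 and 7 of 18.

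Whether the arms differed in the response itself was tested as an interaction. For the rise from mitosis to 60 min 0 of 10 genes and 0% of all genes passed the test (limma, adjusted p under 0.1; 0 of the 10 at an unadjusted p under 0.05), with estimates from -0.28 to 0.05 and a median of -0.06 against -0.01 for all genes. For the IAA difference over 20–60 min against that in asynchronous cells 0 of 10 genes passed as well, where 0.0195% of all genes were higher and 0% lower, and 0 of the 10 had an unadjusted p under 0.05. Asynchronous cells had IAA for 4 h, and released cells for 2 h before release and the time since. Stage and length of treatment cannot be told apart in this comparison. The intervals (95%) of the 80 differences between +IAA and -IAA reached from -0.70 to 0.50 at their widest. With the replicate number as a block they reached from -0.54 to 0.38, with SE of 0.06–0.17, and 0 of the 80 had an unadjusted p under 0.05.

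**Figure D4:**
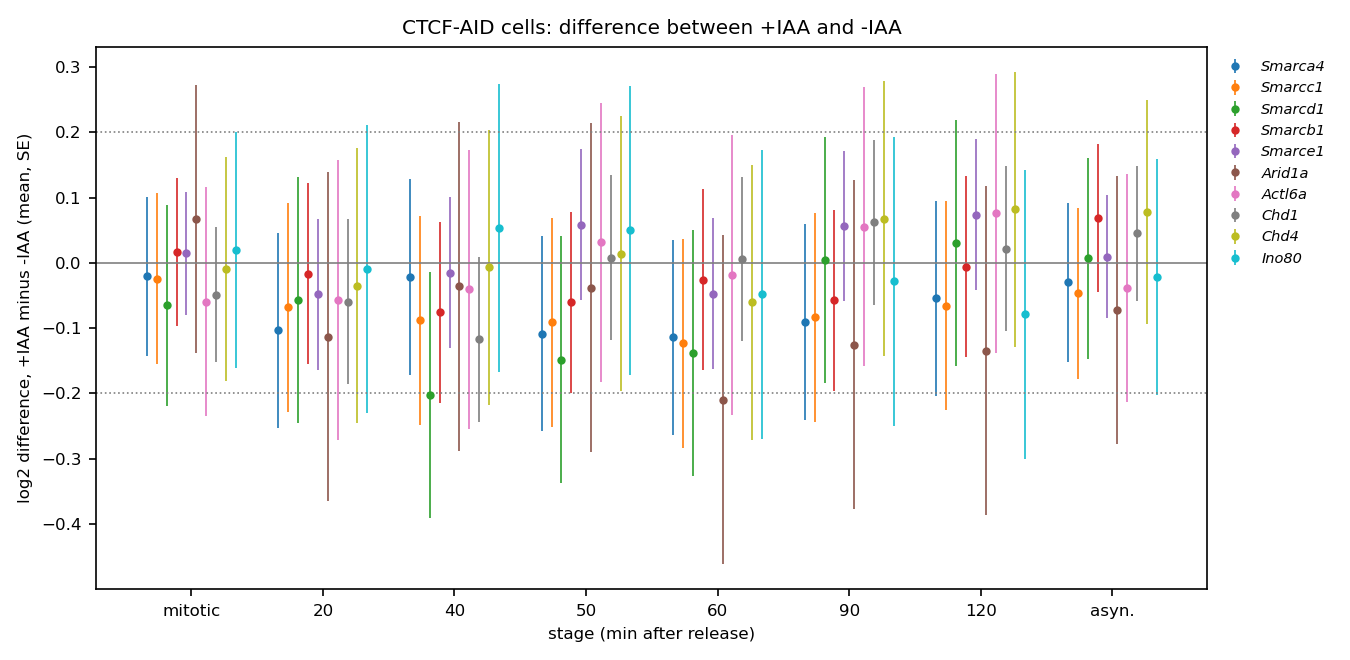
Log2 difference between +IAA and -IAA (limma estimate with SE) for each gene at the 8 stages of CTCF-AID cells, and dotted lines mark an absolute difference of 0.2. All values lie between -0.21 and 0.08, and none passed the test under any scaling.

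Other remodeller genes were taken from lists of 84 genes (BAF and PBAF, ISWI, CHD and NuRD, INO80 with SRCAP and TIP60, and other SNF2 proteins), of which 75 were listed in CCNA-GFP and 76 in CTCF-AID. At 60 min 67 of 75 were higher than in mitosis in CCNA-GFP and none lower (88.3% and 0.515% of all genes), with a median of 0.92 against 0.79 for all genes. Without IAA 63 of 76 were higher and 3 lower (84.8% and 2.7% of all genes, median 0.70 against 0.63), and with IAA 62 were higher and 4 lower (82.2% and 4.04%, median 0.65 against 0.63). After the same-sum scaling 27 were higher and 27 lower in CCNA-GFP, 29 and 29 without IAA and 26 and 30 with IAA, and the medians of the list then lay below those of all genes (-0.03 against 0.02, -0.0055 against 0.06 and -0.03 against 0.06). The shares of all genes in this paragraph are those of the deposited scale. By list, in CCNA-GFP, 12 of 14 BAF and PBAF genes, 9 of 10 ISWI genes, 15 of 19 CHD and NuRD genes, 21 of 21 INO80, SRCAP and TIP60 genes and 10 of 11 other SNF2 genes were higher, against the same 88.3% of all genes. Phf10 and Pbrm1, both subunits of PBAF, were among the 3 largest and the 3 smallest differences in CCNA-GFP, and with libraries of the same sum they were at 0.84 and -0.83. Phf10 was higher by 1.84 ± 0.13 in CCNA-GFP (adjusted p = 2.0e-10) and 1.24 ± 0.14 without IAA (adjusted p = 1.3e-08), while Pbrm1 differed by 0.05 ± 0.11 in CCNA-GFP (adjusted p = 0.645) and fell by 0.37 ± 0.08 on the log2 scale without IAA (adjusted p = 7.6e-05). Pole3, a histone-fold subunit of the ISWI complex CHRAC, and Rbbp4, a histone chaperone of NuRD, were higher by 1.84 ± 0.18 and 1.71 ± 0.13 in CCNA-GFP (adjusted p = 8.6e-09 and 6.1e-10). The NuRD genes Mta1 and Mta3 were at -0.06 ± 0.11 and 0.10 ± 0.09 there (adjusted p = 0.643 and 0.308; -0.91 and -0.55, both called lower, with the same sum), and Mta1 fell by 0.36 ± 0.09 on the log2 scale without IAA (adjusted p = 7.6e-04). In asynchronous against mitotic cells 58 of 75 genes were higher and none lower in CCNA-GFP (70.4% and 1.97% of all genes), while 22 of 76 were higher and 5 lower without IAA (34.3% and 5.25%) and 24 and 4 with IAA (40.9% and 5.89%). The same-sum scaling made these counts 18 higher and 14 lower in CCNA-GFP, 15 and 30 without IAA and 14 and 31 with IAA, and division by the scaling factors made them 64 and 0, 45 and 0 and 40 and 0. The list medians were then 0.03, -0.02 and -0.05 with the same sum (all genes 0.02, 0.03 and 0.04). With the factors they were 0.33, 0.17 and 0.17 (all genes 0.24, 0.18 and 0.19). None of the 76 genes was called between +IAA and -IAA at any stage, by the test that called no gene of the table in mitosis or at 20 and 40 min.

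The 10 genes did not share 1 profile. Over 25 group means on the log2 scale, centred within each table, the correlation of each gene with the mean of the 10 was 0.94 for Smarca4 and Smarcc1, 0.93 for Chd1, 0.90 for Actl6a, 0.89 for Smarce1, 0.87 for Smarcd1, 0.81 for Arid1a and 0.71 for Smarcb1, and 0.39 for Chd4 and 0.12 for Ino80, each being part of that mean. Over the 6604 genes whose mean reached 1 TPM, the median correlation with that profile was 0.79, and those most like it were Stt3a (0.99), Ino80d (0.99) and Baz1b (0.99). These points share their libraries and their scaling, so the values describe likeness only.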

How the data were processed

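Total RNA, depleted of ribosomal RNA, was sequenced as stranded paired ends, aligned by the authors with STAR to mm10 and quantified with RSEM against Gencode vM12 with an unspliced isoform added for each gene. The deposited TPM of that isoform hold the genes the authors kept, with a mean above 0.5 TPM in asynchronous cells or at 2 or more times after mitosis. All 9911 and 10237 listed genes meet this on the deposited values. It asks nothing of mitotic cells, where 2643 (26.7%) and 1981 (19.4%) have a mean of 0.5 TPM or less (in CTCF-AID in both arms), so genes were chosen by stages that are compared with mitosis and shares of all genes called higher hold for this choice. Per library 6–66 genes are listed at 0. Each line has its own table, so the 2 lines were tested separately. In the headers of the 6 asynchronous CTCF-AID libraries the first letter of the stage is overwritten, and the rest of the name gives the arm, stage and replicate.

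Differences were tested on log2(TPM + 1) over all genes with limma 3.58.1 (R 4.3.3, eBayes with a trend) and Benjamini-Hochberg adjustment, and fold changes of low genes are understated on this scale. Stages were compared with the replicate number as a block (adjusted p under 0.05), and +IAA with -IAA without it (adjusted p under 0.1, absolute log2 difference above 0.2). Deviations from group means of libraries with the same number correlated over 0.1 in all 20 pairs of groups in CCNA-GFP (median r = 0.52) and all 88 in CTCF-AID (median r = 0.52), so the numbers were taken to pair the libraries. The main IAA comparisons leave this pairing out, and so do the shares of all genes given beside them. The fits were tested on simulated data. Alternatives were another pseudocount, a filter at a mean of 1 TPM, 2 scalings, no trend, no or added block, and each replicate left out. Tables were handled with Python 3.11.15, numpy 2.4.6 and pandas 2.3.3.

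The 10 genes and the lists were chosen with earlier results of these data known. The text names these 10 genes, Ctcf, the 3 other remodeller genes with the largest and the 3 with the smallest 60-min difference in CCNA-GFP, any called between +IAA and -IAA at 2 or more stages, and the 3 genes most like the mean profile.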

Additional observations from a re-analysis of the deposited data

Results flagged for a closer look

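Some genes moved one way in every replicate of one cell line and the other way in every replicate of the other. None of these differences between lines was tested, because each line has its own table, and values are mean log2 differences from mitosis within replicates, as CCNA-GFP and then CTCF-AID without IAA. In asynchronous cells (n = 3) Smarcc1 was at 0.43 and -0.14, and Chd1 at 0.45 and -0.11. At 40 min (n = 2) the BAF genes Smarcc1 (0.050 and -0.14), Smarcb1 (0.098 and -0.049), Smarce1 (0.070 and -0.052) and Arid1a (0.090 and -0.12) were split in this way. At 90 min Chd4 was at 0.28 and -0.42 and Ino80 at 0.31 and -0.28, and at 120 min Ino80 was at 0.25 and -0.31. The medians of all genes (limma estimates) also differed between the lines. They were 0.33 and 0.12 in asynchronous cells, 0.26 and 0.34 at 40 min, 0.73 and 0.40 at 90 min and 0.68 and 0.34 at 120 min. How many of all genes were split in this way was not counted, so the splits are not shown to be particular to these genes. Between the CTCF-AID arms Chd4 at 20 min was split too, at 0.020 without and -0.032 with IAA, a difference that was not tested in this form. These opposite directions depend on the scaling, a comparison chosen after seeing the data. With libraries of the same sum 1 of the 9 splits between lines remained, that of Chd1 (0.042 and -0.26), and in the other 8 the mean in CCNA-GFP was negative too. Divided by the scaling factors 7 of the 9 remained, and Smarcc1 and Chd1 in asynchronous cells did not. The split between the CTCF-AID arms remained under neither scaling. Groups of 3 or fewer libraries were not searched for single outlying values.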

How the results depend on the processing

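The limits lie first in scaling. TPM are relative to the other transcripts of a library, the listed genes are a part of it, and their sum rises after release, so a direction holds only for the scale it is given on. Time points have 2 libraries, and read depth is unknown for TPM, so low genes carry an error that only the replicates show. The median of all genes at 60 min moved from 0.79, 0.63 and 0.63 to 0.02, 0.06 and 0.06 with libraries of the same sum. Of the 260 differences of single genes, 258 kept their direction and side of the threshold with a pseudocount of 0.1, 258 with genes of at least 1 TPM and 257 without a trend. Divided by the scaling factors, which are inferred from the steps of low values and described in no source used here, 179 did so, 45 changed sign but were called in neither fit, 23 lost and 10 gained a call and 3 turned. For libraries scaled to the same sum 93 did so, 45 changed sign but were called in neither fit, 15 lost and 29 gained a call and 78 turned. Turned genes, as named here, changed sign and were called in at least 1 of both fits, so genes called in neither are not named. The cause was not tested.

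With libraries of the same sum, for 40 min against mitotic cells, the turned genes were in CCNA-GFP Smarca4 at -0.31, Smarcc1 at -0.41, Smarcd1 at -0.011, Smarcb1 at -0.33, Smarce1 at -0.31, Arid1a at -0.39, Chd1 at -0.078, Chd4 at -0.43 and Ino80 at -0.40, without IAA Smarca4 at -0.46, Smarcd1 at -0.047, Actl6a at -0.060 and Chd1 at -0.32, with IAA Smarca4 at -0.44, Actl6a at -0.0067 and Chd1 at -0.36. For 60 min against mitotic cells, the turned genes were in CCNA-GFP Smarca4 at -0.41, Smarcc1 at -0.35, Smarcb1 at -0.67, Smarce1 at -0.35, Arid1a at -0.51, Chd4 at -0.78 and Ino80 at -0.70, without IAA Smarca4 at -0.41, Smarcc1 at -0.42, Smarcb1 at -0.67, Smarce1 at -0.44, Arid1a at -0.64, Chd1 at -0.002 and Chd4 at -0.74, with IAA Smarca4 at -0.50, Smarcc1 at -0.52, Smarcb1 at -0.72, Smarce1 at -0.51 and Chd4 at -0.80. For 120 min against mitotic cells, the turned genes were in CCNA-GFP Smarca4 at -0.15, Smarcc1 at -0.067, Smarcb1 at -0.37, Smarce1 at -0.076, Arid1a at -0.34, Chd4 at -0.97 and Ino80 at -0.46, without IAA Smarca4 at -0.20, Smarcc1 at -0.39, Smarcb1 at -0.38, Smarce1 at -0.27, Actl6a at -0.26 and Chd1 at -0.25, with IAA Smarca4 at -0.25, Smarcc1 at -0.45, Smarcb1 at -0.42, Smarce1 at -0.22, Actl6a at -0.13 and Chd1 at -0.19. For asynchronous cells against mitotic cells, the turned genes were in CCNA-GFP Smarca4 at -0.14, Smarcc1 at -0.023, Smarcb1 at -0.0045, Smarce1 at -0.019 and Arid1a at -0.22. For 120 min against asynchronous cells, the turned genes were in CCNA-GFP Smarca4 at -0.011, Smarcc1 at -0.044, Smarcb1 at -0.36, Smarce1 at -0.057 and Arid1a at -0.12, without IAA Smarca4 at -0.046, Smarcb1 at -0.29, Smarce1 at -0.23, Arid1a at -0.26 and Actl6a at -0.23, with IAA Smarca4 at -0.054 and Arid1a at -0.30. For 120 min against 60 min, the turned genes were without IAA Smarca4 at 0.20, Smarcc1 at 0.031, Smarcb1 at 0.29 and Ino80 at 0.24, with IAA Smarca4 at 0.25, Smarcd1 at 0.20 and Smarce1 at 0.28. Divided by scaling factors, for 120 min against asynchronous cells, they were without IAA Smarca4 at -0.021 and Smarcb1 at -0.21, with IAA Smarca4 at -0.0058.

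Under the same-sum scaling, in CCNA-GFP the genes called higher numbered 3 (asynchronous cells), 0 (40 min), 2 (60 min), 1 (90 min), 0 (120 min), 5 (120 against 60 min) and 0 (120 min against asynchronous cells), and those called lower numbered 3 (asynchronous cells), 7 (40 min), 7 (60 min), 5 (90 min), 5 (120 min) and 2 (120 min against asynchronous cells). Under the same-sum scaling, without IAA the genes called higher numbered 0 (40 min), 0 (50 min), 0 (60 min), 0 (90 min), 0 (120 min), 3 (120 against 60 min) and 0 (120 min against asynchronous cells), and those called lower numbered 5 (asynchronous cells), 8 (40 min), 8 (50 min), 7 (60 min), 9 (90 min), 9 (120 min) and 5 (120 min against asynchronous cells). Under the same-sum scaling, with IAA the genes called higher numbered 0 (40 min), 1 (50 min), 1 (60 min), 0 (90 min), 1 (120 min), 4 (120 against 60 min) and 0 (120 min against asynchronous cells), and those called lower numbered 5 (asynchronous cells), 8 (40 min), 8 (50 min), 7 (60 min), 8 (90 min), 9 (120 min) and 3 (120 min against asynchronous cells). Divided by scaling factors, in CCNA-GFP the genes called higher numbered 0 (120 min against asynchronous cells), and those called lower numbered 0 (asynchronous cells) and 0 (120 against 60 min). Divided by scaling factors, without IAA the genes called higher numbered 5 (asynchronous cells), 3 (90 min), 1 (120 min) and 0 (120 min against asynchronous cells), and those called lower numbered 0 (40 min), 0 (60 min), 1 (120 min) and 2 (120 min against asynchronous cells). Divided by scaling factors, with IAA the genes called higher numbered 5 (asynchronous cells), 2 (120 min) and 0 (120 min against asynchronous cells), and those called lower numbered 2 (90 min) and 2 (120 min against asynchronous cells). With a pseudocount of 0.1, in CCNA-GFP the genes called lower numbered 0 (120 against 60 min). Without a trend, in CCNA-GFP the genes called lower numbered 3 (120 against 60 min). Without a trend, with IAA the genes called lower numbered 2 (90 min).

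A time point that loses a replicate keeps 1 library, which is assumed to vary like the other groups. Without replicate 1, 23 of the 260 differences lost and 13 gained a call, without replicate 2 28 and 5, and without replicate 3 17 and 0, while 34, 34 and 11 changed sign but were called in neither fit. Leaving out 1 replicate at a time, in CCNA-GFP the genes called higher numbered 0–1 (40 min) and 1–6 (120 min against asynchronous cells), and those called lower numbered 0–3 (120 against 60 min) and 0 each time (120 min against asynchronous cells). Leaving out 1 replicate at a time, without IAA the genes called higher numbered 0–1 (asynchronous cells), 1–6 (90 min), 0–4 (120 min) and 0–4 (120 min against asynchronous cells), and those called lower numbered 0–1 (40 min), 1–2 (50 min), 0–1 (60 min), 0–2 (90 min), 1–2 (120 min) and 0–1 (120 min against asynchronous cells). Leaving out 1 replicate at a time, with IAA the genes called higher numbered 0–1 (asynchronous cells), 1–2 (40 min), 3–6 (90 min), 0–6 (120 min) and 0–6 (120 min against asynchronous cells), and those called lower numbered 0–1 (40 min), 1–2 (50 min), 0–1 (60 min), 0–2 (90 min), 0–3 (120 min) and 0–1 (120 min against asynchronous cells).

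Fitted without the replicate block, 44 differences between stages lost their call and the other 136 stayed on their side of the threshold. Without the block, in CCNA-GFP the genes called higher numbered 0 (40 min) and 1 (120 min against asynchronous cells), and those called lower numbered 0 (120 against 60 min) and 0 (120 min against asynchronous cells). Without the block, without IAA the genes called higher numbered 0 (asynchronous cells), 0 (40 min), 3 (90 min), 1 (120 min) and 0 (120 min against asynchronous cells), and those called lower numbered 0 (40 min), 0 (50 min), 0 (60 min), 0 (90 min), 1 (120 min) and 0 (120 min against asynchronous cells). Without the block, with IAA the genes called higher numbered 0 (asynchronous cells), 0 (40 min), 1 (120 min) and 0 (120 min against asynchronous cells), and those called lower numbered 0 (50 min), 0 (60 min), 0 (90 min) and 1 (120 min). With the replicate block in the IAA comparisons, all 80 differences and all 20 counts stayed on their side of the threshold, and 0 genes were called.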
